A study of Mus musculus with 8 samples.

Results

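The genes described here are the mouse genes with a Zfp symbol followed by a number that were expressed in single ovulated oocytes (MII oocytes, which wait in the second meiotic metaphase for fertilisation). A gene was taken as a member when it had 10 or more counts in at least 4 of the 8 libraries. Zfp57, Zfp445, Zfp143, Zfp42 and Zfp36 were left out by the rule. This gave 226 members among 368 genes with such a symbol in a table of 37224 genes. The members were thus chosen by their level over all libraries, and the genotype of a library was not used. The 8 libraries were 4 single oocytes from superovulated females of a Setd1b conditional knockout line named after Gdf9 (Setd1bGdf9cKO) and 4 single oocytes from superovulated control females. The Setd1b protein methylates histone H3 at lysine 4, and Gdf9 is a growth factor gene active in oocytes, so that a recombinase under its promoter acts in oocytes of the ovary after birth and not in the earliest germ cells. The labels give neither strain, age nor number of females, nor the genotype that makes a female a control, and both groups had been treated with the hormones that induce superovulation. P-values therefore measure the spread between these oocytes, and whether oocytes of 1 group share a mother is not stated.

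Most genes named Zfp encode proteins with zinc fingers, short loops in which cysteines and histidines hold a zinc ion and which in long arrays read a DNA sequence. Many of them also carry a KRAB domain, which binds the corepressor Trim28 and through it brings Setdb1, heterochromatin protein and deacetylases to the bound site, most often in a retrotransposon. KRAB zinc finger genes have multiplied by local duplication and lie in clusters on several chromosomes, where neighbours are close relatives. In the oocyte and early embryo such proteins are known for holding retrotransposons silent and for protecting imprinted methylation. The symbol itself is a name and not a function: some members act in signalling, ubiquitin transfer or on the spindle.

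Levels are given as CPM, the read count scaled to a common, composition-corrected library size. Values are always for knockout replicates 1 to 4 and then control replicates 1 to 4. Levels of single genes are ranked per kilobase of length (RPKM) unless reads are named. Medians over groups of genes are in CPM and are not corrected for length. Totals ran from 9488899 to 13519404 counts. The composition factors, which correct a total for the share taken by its largest genes, were 1.07 to 1.22 for knockout libraries against 0.800 to 0.947 for controls, and the knockout libraries held more genes with 10 or more counts (11190 to 12153 against 9913 to 10714). Setd1b (chr5:123142193-123167435, mm10) measured 4.42, 5.05, 2.96 and 3.54 CPM in knockout and 10.7, 12.8, 9.22 and 10.9 CPM in the controls; the groups did not overlap, and the log2 fold change was -1.44 ± 0.41 (SE, adjusted p = 0.0221). Without knockout replicate 3 or control replicate 2, or on library totals, the adjusted p of Setd1b lay between 0.0519 and 0.0887. The oocyte markers summed to 15810 to 21209 CPM in knockout and 16617 to 22490 CPM in control oocytes, with 12 of 12 listed genes tested, 5 higher and 1 lower. The list of cumulus and granulosa markers summed to 133 to 197 CPM in knockout and 240.3 to 254 CPM in control oocytes, ranges that did not overlap. Of its 15 genes 5 were tested and 2 of these were lower. Amh, Foxl2, Gja1, Inha, Ptx3 and Tnfaip6 had no count in any library, and the rest of the list had counts. The part of these differences in the results below was not tested, and fewer attached cells and less RNA per cell cannot be told apart.

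Of the 226 members, 222 passed the filter on low counts and were tested with all other genes, and 46 differed between knockout and control at an adjusted p under 0.05 (edgeR quasi-likelihood test, Benjamini-Hochberg over 11066 genes). That is 20.7% of the tested members, where the background was 25.8% of all tested genes. The called members were split unevenly, with 12 higher and 34 lower in the knockout. Without Zfp600 and Zfp983, which passed the member rule through 1 group alone, 11 were higher and 33 lower among 220 tested members. Among all tested genes 13.6% were called higher and 12.2% lower, against 5.41% and 15.3% of the tested members. This split depended on the scaling: with library totals alone 23 members were higher and 14 lower, beside 21.5% and 4.61% of all genes. With the length trend of each library removed, 6 were higher and 52 lower, beside 8.8% and 22.5% of all genes. All 12 rises stayed called on library totals and all 34 falls with the length trend removed, while 14 of the 34 falls stayed on library totals and 5 of the 12 rises with the length trend removed.

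The members' median log2 fold change was 0.01, with quartiles at -0.67 and 0.65, beside a median of 0.10 over all tested genes. The distance of the members' median to that of all genes was -0.09 as reported, -0.08 on library totals and -0.17 with the length trend removed, although the medians of all genes themselves moved to 0.49 and -0.26. Without the filter on low counts the distance was -0.33, with the members' median at 0.01 and that of all genes at 0.35. The 4 knockout and 4 control values did not overlap in 15 members that were higher and 30 that were lower in the knockout, beside 17.7% and 13.6% of all tested genes (31.3% in either direction). Together the members took 1.02% to 1.16% of the counts in knockout and 1.05% to 1.295% in control oocytes, ranges that overlapped. On the CPM scale, which includes the composition factors, their sums did not overlap, at 8387 to 10681 in knockout and 11368 to 16189 in control oocytes. The sums of all tested genes parted in the same way, at 819259 to 932818 and 1054790 to 1248170. Between 204 and 216 members reached 10 counts in a knockout library and between 192 and 209 in a control library. The counts of calls rested in part on single libraries: 7 members were higher without knockout replicate 2 and 6 without knockout replicate 3, and 20 were lower without knockout replicate 1 and 21 without knockout replicate 2. The share of all tested genes called without these libraries was not taken, so whether this is particular to the members was not tested.

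**Figure D1:**
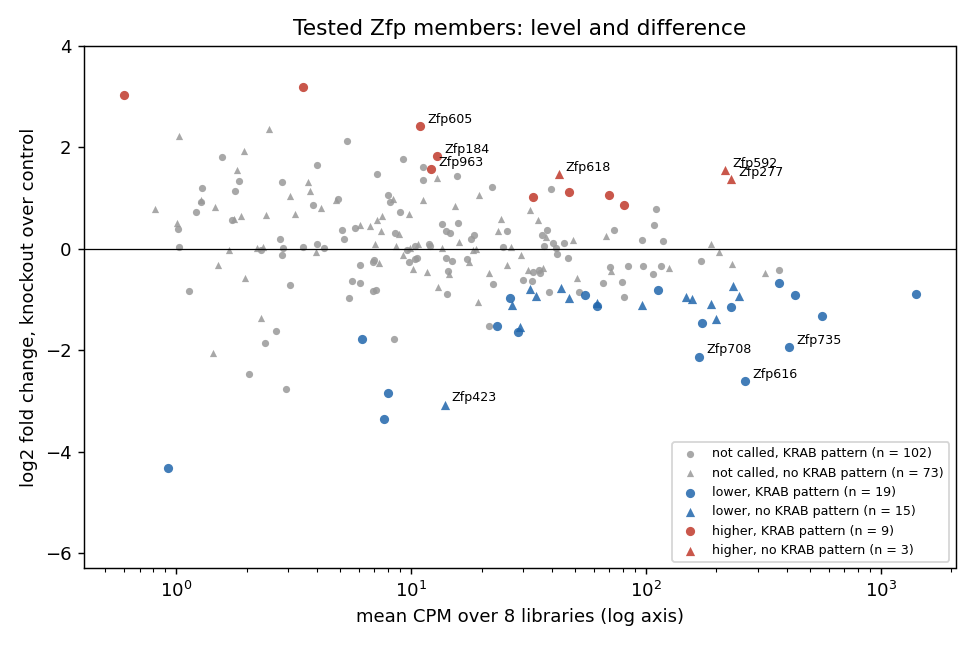
Log2 fold change of knockout over control (y axis) against the mean level in CPM over the 8 libraries (x axis, log scale) for the tested members with a coding sequence, coloured by call and shaped by the KRAB pattern. The median level was 79.1 CPM in the 34 falls and 10.5 CPM in the members that were not called; the same medians were 144 CPM in all tested genes called lower and 15.6 CPM in all tested genes.

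Falls were called in members with and without a KRAB pattern, 19 of the 34 having one (55.9%, beside 58.7% of all members). Zfp616, with 18 fingers by pattern and a KRAB pattern (chr11:74069955-74087292, ENSMUSG00000069476), measured 72.6, 80.2, 89.3 and 55.3 CPM in knockout and 507, 402, 432 and 475 CPM in the controls. Every knockout oocyte lay far below every control oocyte, and the log2 fold change was -2.61 ± 0.19 (SE, adjusted p = 1.15e-05). Zfp708 (chr13:67069400-67097976, ENSMUSG00000058883), a KRAB zinc finger protein known for binding a family of retrotransposons in the female germ line, measured 38.6, 71.9, 86.2 and 53.8 CPM in knockout and 403, 246, 231 and 215 CPM in the controls. Control replicate 1 stood above the other controls, and the log2 fold change was -2.13 ± 0.28 (adjusted p = 0.000412). Zfp735 (chr11:73688778-73713798, ENSMUSG00000060630), which has a KRAB pattern and 7 fingers, measured 134, 159, 231 and 150.2 CPM in knockout and 736, 314, 353 and 1185 CPM in the controls. Its control oocytes were unlike one another, with replicates 1 and 4 well above replicates 2 and 3, but all lay above the knockout oocytes, and the log2 fold change was -1.94 ± 0.38 (adjusted p = 0.00383).

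Zfp820 and Zfp979 fell in the same way from high control levels. Zfp820 (chr17:21816876-21845759) measured 87.3, 102, 109 and 73.03 CPM in knockout and 302, 172, 229 and 314 CPM in the controls, for a log2 fold change of -1.46 ± 0.22 (adjusted p = 0.000913). Zfp979 (chr4:147611937-147642513) measured 269.6, 307, 362 and 339 CPM in knockout and 944, 520.2, 648 and 1103 CPM in the controls, for a log2 fold change of -1.33 ± 0.23 (adjusted p = 0.00185). Both carry a KRAB pattern, Zfp979 with 3 fingers and Zfp820 with 12. Zfp957 (chr14:79212353-79247369), whose annotated coding sequence matched no finger pattern, measured 99.7, 98.2, 142 and 97.8 CPM in knockout and 244, 237, 323 and 345 CPM in the controls. The knockout oocytes agreed closely apart from replicate 3, and the log2 fold change was -1.39 ± 0.198 (adjusted p = 0.000599). Zfp92 on chromosome X, with a KRAB pattern, measured 8.32, 13.3, 14.6 and 11.6 CPM in knockout and 29.6, 40.6, 18.3 and 49.8 CPM in the controls, with no overlap and a log2 fold change of -1.53 ± 0.35 (adjusted p = 0.00795).

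A further pair of members came close to the detection limit in single knockout oocytes. Zfp423 (chr8:87661810-87959595), a long factor of 27 fingers without a KRAB pattern that partners SMAD and EBF proteins and is known from fat cell fate, measured 3.45, 1.51, 6.55 and 0.279 CPM in knockout and 40.9, 15.4, 17.5 and 25.8 CPM in the controls. Its highest knockout oocyte lay below its lowest control oocyte, and the log2 fold change was -3.07 ± 0.71 (adjusted p = 0.00846). Zfp563 (chr17:33089310-33106203), a KRAB zinc finger gene, measured 0.225, 2.64, 1.71 and 0.837 CPM in knockout and 8.14, 10.9, 17.95 and 18.9 CPM in the controls, for a log2 fold change of -3.36 ± 0.67 (adjusted p = 0.00422). In knockout replicate 4 of Zfp423 and knockout replicate 1 of Zfp563 the value rested on 3 counts.

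Falls also reached members with known roles outside the KRAB family. Zfp532, a relative of Zfp592 and Zfp687, measured 17.02, 15.6, 10.6 and 16.6 CPM in knockout and 34.6, 39.4, 50.4 and 49.3 CPM in the controls, for a log2 fold change of -1.54 ± 0.26 (adjusted p = 0.00173). Zfp148, which binds GC-rich promoter sequence, measured 109.9, 100.2, 78.6 and 134 CPM in knockout and 222, 169, 189 and 262 CPM in the controls, with a log2 fold change of -0.99 ± 0.21 (adjusted p = 0.00524). Zfp638, a nuclear matrix protein that works with the HUSH complex in silencing retroviral DNA, measured 134, 171, 208 and 193 CPM in knockout and 349, 253, 302 and 276 CPM in the controls, with a log2 fold change of -0.74 ± 0.18 (adjusted p = 0.0117). In each of these genes all knockout oocytes lay below all control oocytes. Zfp318, needed by B cells to express IgD, measured 119, 84.2, 79.4 and 124 CPM in knockout and 216, 176, 228 and 164 CPM in the controls (log2 fold change -0.95 ± 0.204, adjusted p = 0.006201). Zfp664 measured 126, 105, 114 and 139 CPM in knockout and 276, 269, 283 and 199 CPM in the controls (log2 fold change -1.09 ± 0.17, adjusted p = 0.00123). Zfp407, with 22 fingers, measured 18.7, 25.5, 25.7 and 24. CPM in knockout and 47.5, 50.1, 50.7 and 29.7 CPM in the controls (log2 fold change -0.92 ± 0.25, adjusted p = 0.0194). Control replicate 4 was the lowest control oocyte in these last 3 genes, and the call of Zfp407 was lost without knockout replicate 1 (adjusted p = 0.0654). On library totals the calls of Zfp148, Zfp638, Zfp318 and Zfp407 were lost, with adjusted p from 0.0514 to 0.152.

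The rises were fewer and 4 of them were called under every alternative fit. The largest rises were likewise picked for no overlap between the groups, so its absence was set by that choice. They are Zfp592, Zfp277, Zfp605, Zfp184, Zfp963, Zfp618, Zfp946, Zfp345 and Zfp84. Zfp592 (chr7:80993681-81045164), which works in a complex with ZMYND8 and Zfp687 on chromatin, measured 447, 287, 272 and 290.4 CPM in knockout and 101, 146, 104 and 92.7 CPM in the controls. The lowest knockout oocyte stood well above the highest control oocyte, and the log2 fold change was 1.55 ± 0.22 (adjusted p = 0.000553). Its relatives had other values: Zfp532 was lower, as given above, and Zfp687 measured 6.67, 6.102, 3.502 and 4.84 CPM in knockout and 1.65, 2.31, 6.18 and 1.899 CPM in the controls, where the groups overlapped (log2 fold change 0.81 ± 0.603, adjusted p = 0.357). Zfp277 (chr12:40315046-40445790), known for recruiting Polycomb proteins to the Ink4a/Arf locus, measured 313, 303, 357 and 358 CPM in knockout and 197, 114, 74.3 and 130.1 CPM in the controls. Its knockout oocytes agreed closely and all exceeded the controls, with a log2 fold change of 1.37 ± 0.25 (adjusted p = 0.00268).

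Zfp605 and Zfp184, both with a KRAB pattern, rose from low control levels. Zfp605 (chr5:110110092-110129794) measured 23.5, 19.2, 14.99 and 16.4 CPM in knockout and 5.39, 2.95, 2.96 and 2.598 CPM in the controls, for a log2 fold change of 2.41 ± 0.39 (adjusted p = 0.00134). Zfp184 (chr13:21945094-21960779) measured 28.3, 21.02, 13.3 and 17.96 CPM in knockout and 3.08, 9.18, 3.95 and 6.496 CPM in the controls, for a log2 fold change of 1.82 ± 0.43 (adjusted p = 0.00948). In both genes the lowest knockout value was above the highest control value, as the choice of the largest rises required. Zfp963 measured 20.1, 15.3, 12.8 and 24.9 CPM in knockout and 6.599, 3.11, 7.82 and 7.096 CPM in the controls (log2 fold change 1.57 ± 0.401, adjusted p = 0.0142), and its call was lost with the length trend removed (adjusted p = 0.0771). Zfp618, a partner of the methylation reader UHRF2, measured 95.01, 50.8, 36.5 and 68.1 CPM in knockout and 12.98, 36.4, 30.2 and 10.6 CPM in the controls (log2 fold change 1.47 ± 0.42, adjusted p = 0.02404). The call of Zfp618 was lost without knockout replicate 1, knockout replicate 4 or control replicate 1, with adjusted p up to 0.08696. Zfp946, Zfp345 and Zfp84 also rose without overlap and are described with their chromosome clusters.

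**Figure D2:**
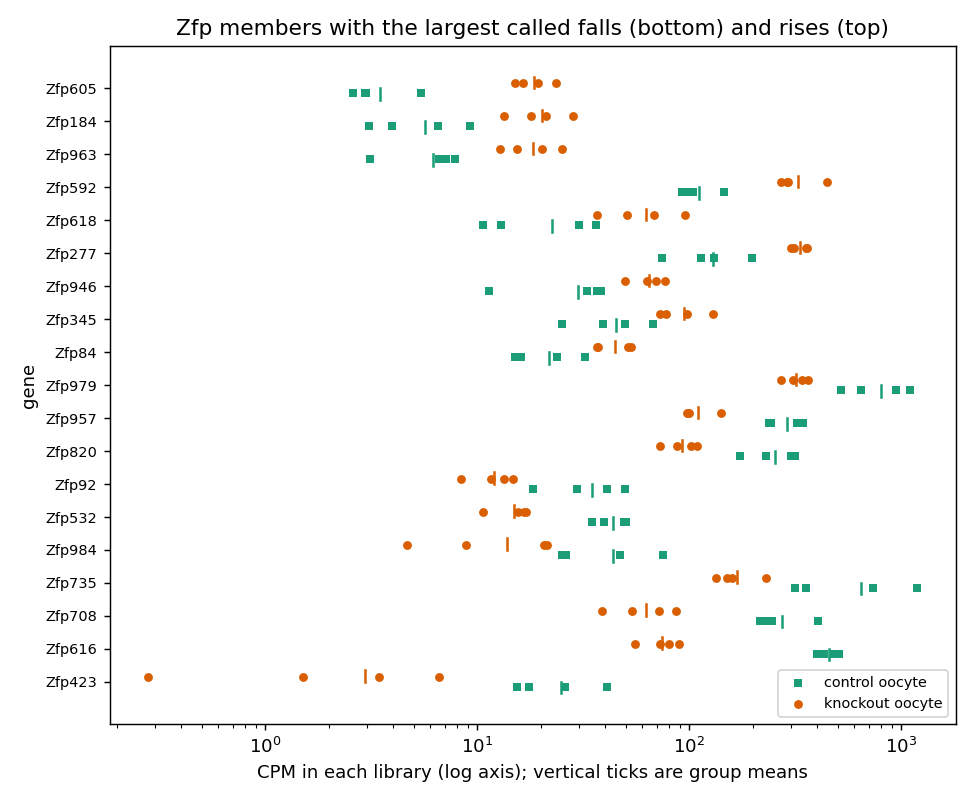
CPM in each of the 8 oocytes (x axis, log scale) for the 9 rises and the 10 largest falls that were called, averaged at least 10 CPM and did not overlap between groups; circles are knockout oocytes, squares control oocytes and vertical ticks group means. The knockout values of Zfp616 end at 89.3 CPM where its control values begin at 402 CPM, and the spread of the controls is widest for Zfp735.

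Among the 10 members with the highest level per length, 7 were called (70%), beside 25.8% of all tested genes. Their mean levels ranged from 63.9 to 313 RPKM, beside a median of 3.38 over all members. Of the 10, 6 were lower and 1, Zfp277, was higher, beside 12.2% and 13.6% of all tested genes. The share called among all genes of like level was not taken, so whether these calls are particular to the members was not tested. Called falls had high levels outside the members too: all tested genes called lower had a median of 144 CPM, beside 15.6 CPM over all tested genes. These medians are not per length, and the genes called lower were also longer, with a median of 4359 beside 3580 bases. Zfp655 was the most abundant and measured 742, 1084, 1114 and 1029 CPM in knockout and 1965, 1411, 1493 and 2464 CPM in the controls, with a log2 fold change of -0.89 ± 0.21 (adjusted p = 0.00967); on library totals its adjusted p was 0.0520. Zfp68 measured 239, 261, 402 and 299.7 CPM in knockout and 632, 427, 414 and 788 CPM in the controls (log2 fold change -0.91 ± 0.24, adjusted p = 0.0165). The call of Zfp68 was lost without knockout replicate 1 or knockout replicate 2, with adjusted p up to 0.0607, and on library totals (adjusted p = 0.0762). Zfp873 measured 85.6, 159.8, 202 and 125 CPM in knockout and 444, 209, 153 and 459 CPM in the controls, where the groups overlapped (log2 fold change -1.14 ± 0.36, adjusted p = 0.0361). The call of Zfp873 was lost without knockout replicate 1, knockout replicate 2, knockout replicate 4, control replicate 1 or control replicate 4, with adjusted p up to 0.102, and on library totals (adjusted p = 0.116). Zfp979, Zfp735 and Zfp708, given above, completed the falls in this group. Zfp961, Zfp131 and Zfp706 were as abundant and were not called, with log2 fold changes of -0.43 ± 0.22, -0.31 ± 0.24 and -0.47 ± 0.17 and adjusted p of 0.183, 0.385 and 0.0647.

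Chromosome clusters were taken as runs of at least 4 members whose neighbouring starts lay at most 500 kb apart. There were 13, holding 90 members, and 81 of these 90 had a KRAB pattern, against 51 of the 136 members elsewhere. Of the 87 tested members in clusters, 7 were called higher and 11 lower, and of the 135 tested members elsewhere 5 were higher and 23 lower, so that the share called was 20.7% in both. The background was 25.8% of all tested genes. The clustered calls include Zfp600 and Zfp983, which passed the member rule through 1 group alone. Median log2 fold changes were 0.04 in clusters and 0.01 elsewhere. The clustered calls moved with single libraries: 2, 1 and 3 were higher without knockout replicate 2, knockout replicate 3 or control replicate 2, and 5 and 6 were lower without knockout replicate 1 or knockout replicate 4. For these fits the share of all tested genes was not taken. With the length trend removed none of the clustered members was called higher and 20 were lower, beside 8.8% and 22.5% of all tested genes. In no cluster were all members called. Cluster medians ran from -0.89 on chromosome 8 to 0.59 in the first cluster of chromosome 7, and neighbours of 1 cluster took different directions.

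The longest cluster, of 19 members on chromosome 17 (chr17:21008941-23193252), held calls in both directions. Its median log2 fold change was 0.47, with 13 members above 0 and 6 below. Zfp946 measured 49.6, 76.5, 69.6 and 63.2 CPM in knockout and 32.8, 11.3, 36.8 and 38.4 CPM in the controls, higher in the knockout without overlap (log2 fold change 1.12 ± 0.34, adjusted p = 0.0312). The call of Zfp946 was lost without knockout replicate 2, knockout replicate 3, knockout replicate 4 or control replicate 1, with adjusted p up to 0.0907, and with the length trend removed (adjusted p = 0.167). Zfp820, which shares 61.8% of its residues with Zfp946 by alignment, fell, as given above. Zfp160 measured 77.2, 120.4, 153 and 65.1 CPM in knockout and 63.4, 41.9, 55.8 and 66.5 CPM in the controls with overlap (log2 fold change 0.87 ± 0.28, adjusted p = 0.0388). The call of Zfp160 was lost without knockout replicate 2, knockout replicate 3, control replicate 1, control replicate 2 or control replicate 3, with adjusted p up to 0.125, and with the length trend removed (adjusted p = 0.271). Zfp229 was lower, at 57.7, 83.9, 113 and 71.6 CPM in knockout and 139, 147, 105 and 185 CPM in the controls (log2 fold change -0.82 ± 0.24, adjusted p = 0.0271), with knockout replicate 3 above control replicate 3. The call of Zfp229 was lost without knockout replicate 1, knockout replicate 2, knockout replicate 4, control replicate 2 or control replicate 4, with adjusted p up to 0.0822, and on library totals (adjusted p = 0.165). Zfp983 was counted at 1, 3, 0 and 0 in knockout and 19, 15, 27 and 16 in control oocytes (adjusted p = 0.0124). It entered the set through its control libraries alone, so that a difference was set by the rule. The call of Zfp983 was lost without knockout replicate 1, with adjusted p up to 0.0557.

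On chromosome 4 a cluster of 8 (chr4:147305674-147848366) had 3 falls and no rise, with a median log2 fold change of -0.53. Beside Zfp979, Zfp984 measured 4.65, 21.3, 20.6 and 8.84 CPM in knockout and 75.1, 24.98, 26.3 and 47.1 CPM in the controls (log2 fold change -1.65 ± 0.504, adjusted p = 0.0318). The call of Zfp984 was lost without knockout replicate 1, knockout replicate 4, control replicate 1 or control replicate 4, with adjusted p up to 0.0939, and on library totals (adjusted p = 0.0804). Zfp534 measured 26.2, 43.3, 39.5 and 44.9 CPM in knockout and 83.04, 37.8, 62.5 and 105 CPM in the controls, with overlap (log2 fold change -0.904 ± 0.31, adjusted p = 0.0487). The call of Zfp534 was lost without knockout replicate 1, knockout replicate 2, knockout replicate 3, knockout replicate 4, control replicate 1, control replicate 3 or control replicate 4, with adjusted p up to 0.135, and on library totals (adjusted p = 0.227). Zfp534 shares 86.1% of residues with Zfp988 of the same cluster, so that reads of the pair may have been split or lost in counting. Zfp988 was not called and showed a log2 fold change of 1.202. The other cluster of chromosome 4 (chr4:145510759-146470292, 6 members) held Zfp600, counted at 13, 15, 14 and 10 in knockout and 3, 1, 0 and 1 in control oocytes (adjusted p = 0.0441). Zfp600 entered through its knockout libraries alone. The call of Zfp600 was lost without knockout replicate 1, knockout replicate 2, knockout replicate 3, knockout replicate 4, control replicate 2, control replicate 3 or control replicate 4, with adjusted p up to 0.121, and with the length trend removed (adjusted p = 0.0626). It was also lost without the filter on low counts, with DESeq2 and with the replicate number as a block, with adjusted p up to 0.178. Zfp980, which took the most reads there and is 79.8% identical to Zfp600, was not called (log2 fold change -0.68 ± 0.31, adjusted p = 0.131).

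On chromosome 2 a cluster of 4 (chr2:150114406-150485091) had 2 rises. Zfp345 measured 77.3, 96.96, 129.7 and 72.8 CPM in knockout and 67.2, 39.1, 24.95 and 49.5 CPM in the controls, without overlap (log2 fold change 1.06 ± 0.302, adjusted p = 0.0231). The call of Zfp345 was lost without knockout replicate 2, knockout replicate 3 or control replicate 2, with adjusted p up to 0.0707, and with the length trend removed (adjusted p = 0.263). Zfp937 measured 10.6, 1.43, 7.09 and 5.95 CPM in knockout and 0.11, 1.68, 0.0824 and 0.7995 CPM in the controls, where knockout replicate 2 lay below control replicate 2 (log2 fold change 3.19 ± 0.98, adjusted p = 0.0316). The call of Zfp937 was lost without knockout replicate 1, knockout replicate 3, knockout replicate 4, control replicate 1 or control replicate 3, with adjusted p up to 0.103, and with the length trend removed (adjusted p = 0.0536). Zfp120, which took the most reads of the 4, was not called (log2 fold change -0.34 ± 0.31, adjusted p = 0.447).

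The 5 clusters of chromosome 7 held 4 calls, 1 rise and 3 falls. Zfp84 (cluster chr7:29768552-30107622) measured 36.5, 52.9, 51.3 and 37.1 CPM in knockout and 32.2, 16.1, 23.8 and 15.1 CPM in the controls, a rise without overlap (log2 fold change 1.03 ± 0.296, adjusted p = 0.0242). The call of Zfp84 was lost without knockout replicate 2, knockout replicate 3, control replicate 2 or control replicate 4, with adjusted p up to 0.0781, and with the length trend removed (adjusted p = 0.119). Zfp667 (cluster chr7:6286579-6396633) fell without overlap, at 3.15, 2.26, 3.77 and 1.95 CPM in knockout and 8.14, 9.26, 9.31 and 11.8 CPM in the controls (log2 fold change -1.79 ± 0.45, adjusted p = 0.0139). With the replicate number as a block the adjusted p of Zfp667 was 0.0575. Zfp329 (cluster chr7:12415153-12850577) measured 20.5, 24.2, 27.8 and 21.4 CPM in knockout and 40.03, 32.9, 40.5 and 49.9 CPM in the controls, also without overlap (log2 fold change -0.798 ± 0.24, adjusted p = 0.02802). The call of Zfp329 was lost without knockout replicate 1, knockout replicate 2, knockout replicate 4 or control replicate 4, with adjusted p up to 0.0834, and on library totals (adjusted p = 0.215). Zfp111 (cluster chr7:24134174-24316666) measured 1.35, 5.05, 0.539 and 0.837 CPM in knockout and 15.3, 3.03, 21.4 and 16.4 CPM in the controls, with knockout replicate 2 above control replicate 2 (log2 fold change -2.83 ± 0.78, adjusted p = 0.0196). The call of Zfp111 was lost without knockout replicate 1, knockout replicate 4 or control replicate 3, with adjusted p up to 0.0599. Zfp108, Zfp568, Zfp606 and Zfp580, which took the most reads in their clusters without regard to length, were not called, with log2 fold changes of -0.34 ± 0.24, -0.66 ± 0.37, -0.47 ± 0.32 and 0.01 ± 0.903.

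Zfp708 was the only called gene among 7 tested members of its cluster on chromosome 13 (chr13:67069400-67827000), where the median was 0.06 and 5 members had a log2 fold change above 0. Zfp85 and Zfp273 of the same cluster share 90.2% of residues, the highest value of any pair within the 13 clusters, and had log2 fold changes of 0.03 and 0.34, neither called. Zfp563 was the only called gene of 7 in the second cluster of chromosome 17 (chr17:32965814-33631779), and Zfp81, which took the most reads there, showed a log2 fold change of 0.12 ± 0.37 (adjusted p = 0.837). Zfp963 was the only called gene of 5 on chromosome 8 (chr8:69226343-69791178), a rise in the cluster with the lowest median. None of the 6 members on chromosome 6 (chr6:47835661-48086593) was called. Zfp212, which took the most reads of them, measured 60.4, 54.5, 34.9 and 70.6 CPM in knockout and 74.1, 137, 157 and 57.6 CPM in the controls and missed the threshold (log2 fold change -0.95 ± 0.33, adjusted p = 0.0521).

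**Figure D3:**
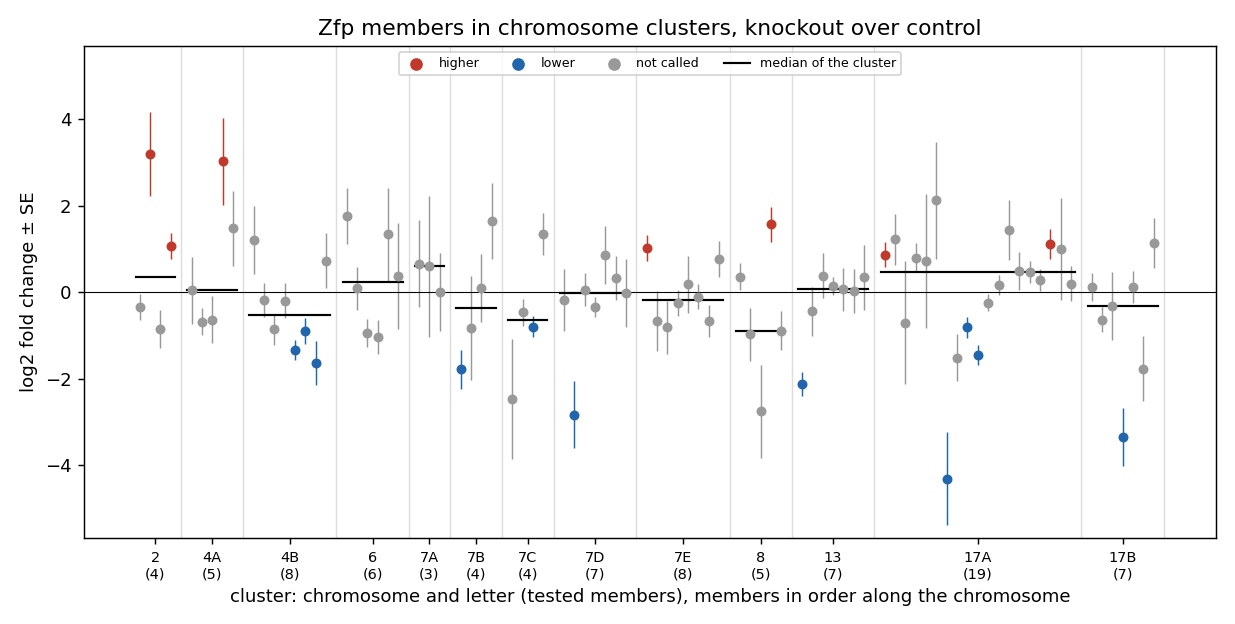
Log2 fold change of knockout over control with its SE (y axis) for each tested member of the 13 chromosome clusters, in order along the chromosome (x axis), coloured by call; horizontal bars are cluster medians. Most clusters hold values on both sides of 0, and called members stand beside neighbours that were not called.

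Members with and without a KRAB domain were called in both directions. A KRAB pattern was found in 132 of the 225 members with an annotated coding sequence. Of 130 tested members with the pattern 9 were higher and 19 lower, and of 91 without it 3 were higher and 15 lower. These are 21.5% and 19.8% called, both under the background of 25.8%. The shares higher and lower were 6.92% and 14.6% with the pattern and 3.3% and 16.5% without it. Among all tested genes they were 13.6% and 12.2%. Members with and without the pattern had median log2 fold changes of -0.02 and 0.03. The number of fingers had a median of 11.5 in the higher, 10 in the lower and 11 in all members, which ranged from 0 to 36. Gene length did differ between the calls: the median was 3508.5 bases in the higher and 4543 bases in the lower members. The same held over all tested genes, with 2869 bases for the higher and 4359 bases for the lower ones. With the length trend removed, all 34 falls and 5 of the 12 rises among the members stayed called. In that fit the all-gene median moved from 0.10 to -0.26, so genes in general shifted downward. The part of length was not separated from this shift, and whether length bears on the calls was not tested.

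At the median, start sites of members had fewer CG dinucleotides than those of all tested genes. Setd1b belongs to a family of enzymes whose mark sits mainly at promoters rich in this dinucleotide, and the mark itself was not measured here. RefSeq promoter windows (GRCm38.p6, 250 bases before to 50 after the start) were found for 170 members, and their median was 14 CG dinucleotides per window, beside 21 in 7760 tested genes with a window. The dinucleotide was present in 99.3% of the windows of tested genes and in 100% of those of members, so its number and not its presence was compared. A window reached the overall median of 21 in 28.2% of members and 53.2% of tested genes. Members with a KRAB pattern reached it in 14.4% of 104 windows and members without it in 50.8% of 65. Called members of both directions had similar counts: the median was 10.5 in the 12 higher, 11 in 25 lower and 15 in 131 members that were not called.

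The windows below show this range in 3 called falls, Zfp735, Zfp708 and Zfp318, and a pair of called rises, Zfp605 and Zfp592. Capitals mark CG dinucleotides, and each window is read 5′ to 3′ on the strand of its gene. The Zfp735 window (chr11:73688528-73688827, plus strand) holds 2, that of Zfp708 (chr13:67097927-67098226, minus strand) 9, that of Zfp318 (chr17:46383516-46383815, plus strand) 49, that of Zfp605 (chr5:110109842-110110141, plus strand) 7 and that of Zfp592 (chr7:80993434-80993733, plus strand) 42.
Zfp735: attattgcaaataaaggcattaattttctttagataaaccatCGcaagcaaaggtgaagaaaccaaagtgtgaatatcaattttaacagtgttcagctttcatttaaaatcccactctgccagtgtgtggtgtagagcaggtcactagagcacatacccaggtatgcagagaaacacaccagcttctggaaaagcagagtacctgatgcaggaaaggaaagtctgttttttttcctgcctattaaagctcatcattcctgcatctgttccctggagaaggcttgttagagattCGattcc
Zfp708: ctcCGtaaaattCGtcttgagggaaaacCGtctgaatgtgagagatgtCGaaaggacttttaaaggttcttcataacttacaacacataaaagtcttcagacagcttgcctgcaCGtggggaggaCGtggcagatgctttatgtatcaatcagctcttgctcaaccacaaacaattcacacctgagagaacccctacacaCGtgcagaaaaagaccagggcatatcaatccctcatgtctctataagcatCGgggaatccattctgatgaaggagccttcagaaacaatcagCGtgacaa
Zfp318: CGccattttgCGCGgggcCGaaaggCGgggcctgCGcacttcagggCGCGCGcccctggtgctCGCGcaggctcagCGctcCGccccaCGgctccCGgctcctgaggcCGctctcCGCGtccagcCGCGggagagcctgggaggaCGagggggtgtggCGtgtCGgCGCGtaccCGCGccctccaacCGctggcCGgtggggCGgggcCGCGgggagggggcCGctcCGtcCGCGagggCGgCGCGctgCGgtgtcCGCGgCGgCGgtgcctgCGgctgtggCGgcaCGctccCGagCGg
Zfp605: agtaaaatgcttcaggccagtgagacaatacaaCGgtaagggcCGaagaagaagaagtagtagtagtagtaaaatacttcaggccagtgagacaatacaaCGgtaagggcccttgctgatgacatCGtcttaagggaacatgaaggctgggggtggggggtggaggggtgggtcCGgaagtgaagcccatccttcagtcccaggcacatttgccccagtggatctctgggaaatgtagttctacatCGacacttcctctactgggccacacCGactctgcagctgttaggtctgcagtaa
Zfp592: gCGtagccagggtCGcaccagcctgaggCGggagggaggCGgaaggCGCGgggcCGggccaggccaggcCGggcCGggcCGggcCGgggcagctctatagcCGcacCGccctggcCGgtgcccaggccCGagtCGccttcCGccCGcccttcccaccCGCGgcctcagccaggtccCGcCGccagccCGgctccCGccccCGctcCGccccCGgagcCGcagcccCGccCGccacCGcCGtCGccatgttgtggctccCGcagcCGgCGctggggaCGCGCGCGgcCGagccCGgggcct
Zfp735, which fell, and Zfp605, which rose, both have sparse windows, and Zfp318, which fell, and Zfp592, which rose, both have dense ones.

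**Figure D4:**
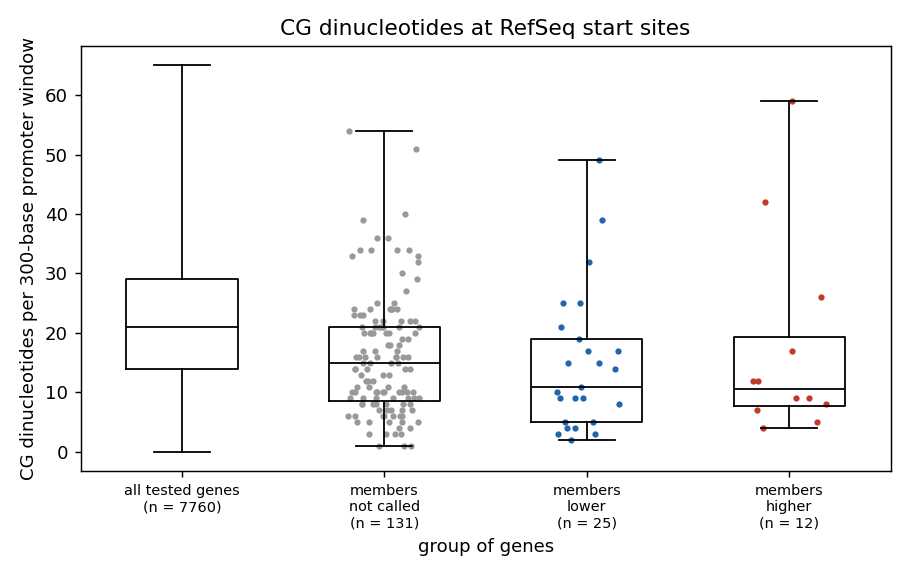
Number of CG dinucleotides per 300-base RefSeq promoter window (y axis) for all tested genes, and for members that were not called, lower or higher (x axis); points are single members, boxes the quartiles with the median, and whiskers the lowest and highest values. The medians of the 3 groups of members, 15, 11 and 10.5, lie below the median of 21 of tested genes, while single members of each group lie above it.

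The partners through which KRAB zinc fingers act were called in both directions. Of 32 listed corepressor and heterochromatin genes 28 were tested, 5 were called higher and 3 lower, which is 28.6% beside the background of 25.8%, with a median log2 fold change of -0.25. Setdb1, which methylates lysine 9 of histone H3 at sites bound by KRAB proteins, measured 276, 281, 292 and 375 CPM in knockout and 132, 139, 90.6 and 62.2 CPM in the controls, with no overlap and a log2 fold change of 1.53 ± 0.25 (adjusted p = 0.00129). Trim28, the protein that KRAB domains bind, measured 132, 125, 101 and 179 CPM in knockout and 137, 260.3, 228 and 163 CPM in the controls, with overlap, and was not called (log2 fold change -0.56 ± 0.24, adjusted p = 0.1096). Dnmt3l, the cofactor of the oocyte's DNA methyltransferase, was higher by 1.12 ± 0.26 and Dnmt3a, that methyltransferase, was at -0.93 ± 0.26 (adjusted p = 0.00928 and 0.0204). Sumo3 and Mta1 were higher too, with log2 fold changes of 1.07 ± 0.25 and 1.88 ± 0.44, and the deacetylase gene Hdac1 measured 8.02, 2.26, 6.29 and 7.35 CPM in knockout and 0, 0.639, 0 and 0.2998 CPM in the controls, with 2 controls at 0 (adjusted p = 0.00985). Smarcad1 and Gatad2a were lower, at -0.701 ± 0.23 and -0.698 ± 0.198. None of the 3 falls stayed called without knockout replicate 1 or knockout replicate 2 or on library totals, and 1 stayed without control replicate 1, control replicate 2 or control replicate 4. With the length trend removed 3 were higher and 11 lower, beside 8.8% and 22.5% of all tested genes.

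Members with a known role were called at a share near the background. Of 43 such genes listed, 36 were members and tested, and 2 were higher, 8 lower and 26 not called, so that 27.8% were called beside 25.8% of all tested genes. By direction 5.56% were higher and 22.2% lower, beside 13.6% and 12.2% of all tested genes. Among those with a role in silencing, Zfp708 and Zfp638 were called lower and Zfp277 higher, as given above, and the following 3 were not called. Zfp568, which represses a placental promoter of Igf2, measured 56.01, 52.9, 72.7 and 64.5 CPM in knockout and 82.7, 107, 167 and 33.1 CPM in the controls (adjusted p = 0.215). Zfp809, which silences retroviruses through their primer binding site, lay near the detection limit at 0.8998, 3.99, 2.69 and 0.651 CPM in knockout and 2.2, 0.239, 2.55 and 0.5996 CPM in the controls (adjusted p = 0.693). Zfp644, which guides the G9a and GLP methyltransferases, measured 24.4, 30.1, 20.5 and 32.7 CPM in knockout and 48.5, 33.4, 31.95 and 30.8 CPM in the controls (adjusted p = 0.255). In all 3 the knockout and control values overlapped.

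Other members act away from retrotransposons. Zfp207, which loads the checkpoint protein Bub3 on kinetochores, measured 159.6, 258, 168 and 217 CPM in knockout and 228, 198, 175 and 241 CPM in the controls, and its log2 fold change of -0.07 ± 0.19 was within the SE (adjusted p = 0.826). Zfp598, a ubiquitin ligase for collided ribosomes, measured 71.3, 63.3, 34.5 and 72.7 CPM in knockout and 65.7, 108, 89.5 and 63.7 CPM in the controls (log2 fold change -0.43 ± 0.27, adjusted p = 0.264). Zfp281, a factor of pluripotent cells, measured 9.52, 10.5, 23.3 and 4.65 CPM in knockout and 16.6, 15.7, 12.4 and 23.2 CPM in the controls (log2 fold change -0.499 ± 0.46, adjusted p = 0.454). The spread between oocytes was wide in Zfp281, with knockout replicate 3 slightly above the highest control. The SUMO ligase Zfp451, the CoREST partner Zfp217, the ubiquitin ligase Zfp91 and the neurotrophin receptor partner Zfp110 had log2 fold changes of 0.26 ± 0.19, 1.401 ± 0.66, -0.57 ± 0.24 and 1.36 ± 0.49, none called. Zfp652 did not overlap between the groups, at 18.7, 19.1, 23.2 and 18.05 CPM in knockout and 9.68, 14.4, 9.39 and 10.6 CPM in the controls, and missed the threshold (log2 fold change 0.84 ± 0.299, adjusted p = 0.0579).

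The remaining 9 called members fell outside the rule for naming and are listed because all were lower: Zfp951, Zfp541, Zfp449, Zfp46, Zfp513, Zfp597, Zfp654, Zfp330 and Zfp60. They were picked out after their values were seen. Their log2 fold changes ran from -1.12 to -0.67 and their mean levels from 26.6 to 371 CPM. In 7 of them the groups did not overlap. Zfp449 alone of the 9 was called without each library in turn; for the others the adjusted p reached at most 0.110. On library totals all 9 calls were lost, with adjusted p from 0.0512 to 0.322.

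At the edge of the member rule, 15 members reached 10 counts in just 4 libraries and 16 genes in just 3. Just inside, Zfp600 had 57 counts in all and Zfp748 had 69; just outside, Zfp870 had 225 and Zfp619 had 169, most of them in 1 or 2 oocytes. Zfp748, Zfp986, Zfp865 and Zfp800 were members that did not pass the filter for testing. In 161 members all 8 libraries reached 10 counts.

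The authors' deposited table, which lists 2709 genes with an adjusted p of at most 0.01, held 42 of the members, 10 higher and 32 lower. Of these 41 were called here in the same direction and none in the opposite one, from the same 8 libraries. The exception was Zfp800, not tested here, with counts of 7, 174, 72 and 51 in knockout and 0, 11, 6 and 1 in control oocytes. Zfp600, Zfp534, Zfp60, Zfp160 and Zfp946 were called here and are not in that table.

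**Figure D5:**
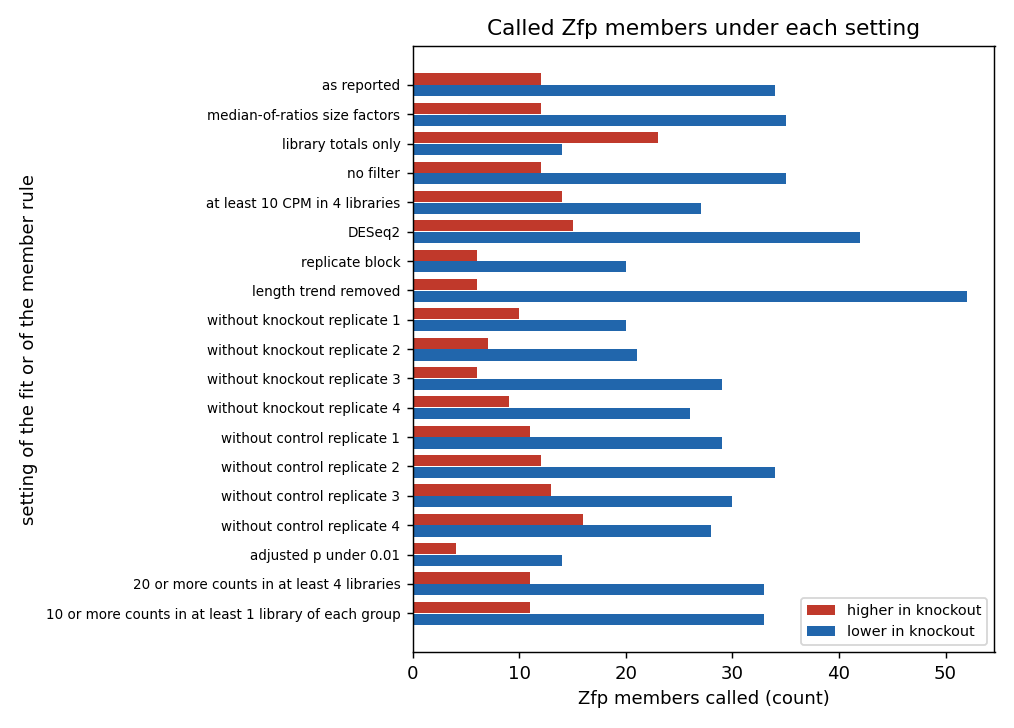
Number of members called higher or lower in the knockout (x axis) under each setting of the fit or the member rule (y axis). Lower calls outnumber higher ones in every setting shown but library totals, where 23 are higher and 14 lower. Over all tested genes 13.6% were higher and 12.2% lower as reported and 21.5% and 4.61% on library totals. With the length trend removed these shares were 8.8% and 22.5%. They were not taken for the other settings, so whether the imbalance there is particular to the members was not tested.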

How the data were processed

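Single MII oocytes, 4 per group, were amplified with a poly(A)-primed kit and sequenced as 75-base single reads, per the labels' protocols; the kit keeps no strand and no molecular identifiers, so an mRNA with a short tail may be underprimed and overlapping genes cannot be told apart. The deposited counts per gene were made by the authors with featureCounts 1.4.4 (Ensembl release 69, mapping quality of at least 1), per the file headers, after alignment with GSNAP to mm10, per the submitters' processing notes. Reads of near-identical paralogs can be lost or split. The authors' deposited table also holds log2 fold changes, p-values and RPKM from DESeq2 1.3.79, per the submitters' processing notes; its entries were only set beside the calls. The normalized signal per library and the standard errors (listed as a score) in the authors' deposited table were not used.

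Gene symbols matched 35449 identifiers in a gene name table. Genes passing filterByExpr went into a quasi-likelihood F test of edgeR 4.0.16 (R 4.3.3), with TMM factors and no term other than genotype, with Benjamini-Hochberg adjustment over 11066 genes and calls at 0.05. Each SE was obtained as the log2 fold change over the root of its F. The script was tested on simulated data. A total of 3 counts, the detection floor, corresponds to 0.225 to 0.330 CPM per library. Libraries of a group had correlations of 0.968 to 0.981 (log2 of CPM + 1), and no pair matched within sampling noise. RPKM was computed here from CPM and the deposited gene length.

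Fingers and the KRAB pattern (at least 0.5 of 26 key positions) were found by script in the coding sequences of GENCODE release M21 with Biopython 1.88 in Python 3.11.15; promoter windows came from RefSeq (GRCm38.p6), accepted when within 5000 bases of the start of the gene. Within clusters, protein identity was taken from pairwise alignment.

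The members and lists were chosen with earlier results of these data known. Named were the 10 largest rises and falls among called members with at least 10 CPM and no overlap, the 10 members with the highest RPKM, called and most abundant members of each cluster, members with a role from background knowledge, those at the threshold, Setd1b and called corepressors. The alternatives used DESeq2 1.42.0, its size factors in edgeR, library totals, all genes unfiltered, a filter of 10 CPM in 4 libraries, the replicate number as a block, a length trend removed by loess (span 0.5), each library left out, an adjusted p of 0.01, other count minimums for members and other distances for clusters.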

Additional observations from a re-analysis of the deposited data

Results flagged for a closer look

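Of 146 groups of 4 oocytes, taken from 73 named genes, 16 had 1 oocyte far from the other 3, with a gap above Dixon's critical share of the range; chance gives this in about 1 of 20 groups. Among called members 6 were affected. Zfp592 stood at 447 CPM in knockout replicate 1 against 272 to 290.4 CPM in the other knockout oocytes, Zfp957 at 141.5 CPM in knockout replicate 3 against 97.8 to 99.7 CPM, and Zfp708 at 403 CPM in control replicate 1 against 215 to 246 CPM in the other controls. Zfp605 was at 5.39 CPM in control replicate 1 against 2.60 to 2.96 CPM, and control replicate 4 was the low one for Zfp664, at 199 CPM against 269 to 283 CPM, and for Zfp407, at 29.7 CPM against 47.5 to 50.7 CPM. None of these oocytes reached the range of the other group, which the choice for no overlap required for Zfp592, Zfp957, Zfp708 and Zfp605.

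The other 10 were in members that were not called. In knockout oocytes, Zfp106 was at 142 CPM in replicate 3, Zfp384 at 3.39 CPM in replicate 2 and Zfp81 at 37.6 CPM in replicate 1. In control replicate 4, Zfp819 was high at 9.49 CPM, and Zfp91 at 45.6 CPM and Zfp384 at 0.200 CPM were low. Control replicate 3 was high for Zfp687 at 6.18 CPM and low for Zfp292 at 0.329 CPM. Zfp512 was high in control replicate 2 at 14.3 CPM and Zfp644 in control replicate 1 at 48.5 CPM.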

How the results depend on the processing

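Beside 12 members called higher and 34 lower as reported (7 and 11 in clusters), library totals gave 23 and 14 (11 and 7), the length trend removed 6 and 52 (0 and 20), the replicate number as a block 6 and 20 (1 and 4), and an adjusted p under 0.01 gave 4 and 14 (0 and 4). Over all tested genes the shares called higher and lower were 13.6% and 12.2% as reported and 21.5% and 4.61% on library totals. They were 8.8% and 22.5% with the length trend removed and were not taken for the other settings. A filter of at least 10 CPM in 4 libraries gave 6 falls in clusters and DESeq2 17. Leaving out each library gave 6 to 16 higher and 20 to 34 lower members, and 1 to 6 higher and 5 to 12 lower ones in clusters. Corepressors, 5 higher and 3 lower as reported, had 0 lower on library totals, with the block and at 0.01, 3 higher at 10 CPM, 5 lower with DESeq2, 3 higher and 11 lower with the length trend removed, and 0 to 3 lower with each library left out, where 5 stayed higher. Median-of-ratios factors, no filter, 20 counts for membership, 10 counts in a library of each group, and a halved or doubled cluster distance kept every count within 1.5 times. Over the named genes 1001 values kept their direction and side of the threshold, 129 fell below it, 30 rose above it and 35 changed sign, all of the last in genes that were called neither as reported nor in that setting. On library totals the log2 fold change turned to 0.0271 for Zfp120, 0.0637 for Zfp326, 0.0516 for Zfp108, 0.34 for Zfp207, 0.0078 for Zfp830 and 0.0831 for Zfp131. With the length trend removed it turned to -0.41 for Zfp639, -0.0478 for Zfp292, -0.65 for Zfp580, -0.26 for Zfp930, -0.13 for Zfp809, -0.31 for Zfp263, -0.0682 for Zfp81 and -0.0367 for Zfp516. Zfp580 and Zfp263 stood at -0.0243 and -0.0193 with median-of-ratios factors and at -0.0245 and -0.0198 with DESeq2, and Zfp207 at 0.0765 with the 10 CPM filter. With each library left out, values on both sides of 0 came from Zfp292 (-0.63 to 0.32), Zfp326 (-1.21 to 0.13), Zfp580 (-0.46 to 0.47), Zfp207 (-0.21 to 0.0340), Zfp263 (-0.64 to 0.53), Zfp81 (-0.18 to 0.35) and Zfp516 (-0.11 to 0.36). Of the 46 calls 15 held in all 15 alternative fits in which the gene was tested, namely rises of Zfp277, Zfp592, Zfp184 and Zfp605 and falls of Zfp563, Zfp423, Zfp616, Zfp708, Zfp735, Zfp532, Zfp92, Zfp820, Zfp957, Zfp979 and Zfp664. The labels do not say that equal replicate numbers share an animal or day, and the deviations of same-numbered oocytes correlated at -0.11 to -0.02, so the numbers were not taken as pairs. Causes of these changes were not tested beyond the settings themselves. Calls lost with the block or the 10 CPM filter were not listed for each gene in the results. At low counts the spread between oocytes limits what can be called.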
